A study of Mus musculus with 6 samples.

Results

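The B cell precursor genes are 9 genes of early B cell development: Pax5, Ebf1, Cd79a, Cd79b, Vpreb1, Vpreb3, Igll1, Rag1 and Rag2. They were picked by symbol, with the longest locus kept where a symbol is listed more than once, and they are 9 of the 53445 loci counted in the series. The rule that selects them uses symbols alone and no measured value, but it was written with earlier results of these data known. The libraries are 6 bulk RNA-Seq samples of Lin-Sca+Kit+ (LSK) bone marrow cells, a sorted population that contains hematopoietic stem cells and multipotent progenitors. Each came from at least 20000 cells of a female mouse on a C57BL/6 background, about 12 weeks old. Cells of 3 mice were OgaVav-Cre, made by crossing floxed Oga mice (Oga fl/fl) with the Vav-iCre transgene, and cells of 3 mice were wildtype. Vav-iCre acts in blood cells generally and not in B cells in particular. Oga encodes O-GlcNAcase, the enzyme that removes the O-GlcNAc sugar from proteins, and whether wildtype mice carried the transgene or a floxed allele is not stated. The question was whether the B cell precursor transcripts differed between genotypes, and how each compared with the share of reads on the antibody genes Ighm, Igj and Igkc.

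B cells form in bone marrow in steps. EBF1 and then PAX5 switch on the B lineage program, and the RAG1 and RAG2 proteins together cut the antibody genes so that their segments can be joined. The first heavy chain is tested on the cell surface with a surrogate light chain, made of the products of Vpreb1 and Igll1, in a pre-B receptor that signals through CD79A and CD79B. Surrogate light chain and recombinase genes are turned down as B cells mature, Pax5 and the CD79 chains stay on in mature B cells, and Pax5 is turned off in plasma cells, which devote much of their mRNA to antibody chains and the J chain encoded by Igj. LSK cells are sorted to lack mature lineage markers, although some multipotent progenitors already transcribe recombinase genes.

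The promoters of 3 members are shown here, because the ratio of Cd79a to Rag1 differed most between genotypes of all pairs of members and Igll1 is the member whose promoter holds the EBF letters. RefSeq (build GRCm38.p6, which is not the mm9 build of the counts) gave promoters for 8 of the 9 members, all except Cd79b. Each sequence is the 250 bases before the annotated start, read 5′ to 3′ on the strand of the gene, with motif letters in capitals: CCCNNGGG for EBF, CAGGTG or CAGCTG for E-boxes bound by E2A, TGGGAA for the core of the Ikaros site, TGTGGT for Runx and GAGGAA for the core of the PU.1 site, on either strand. No motif overlapped another in these sequences.
Igll1, chr16:16863986-16864235, minus strand: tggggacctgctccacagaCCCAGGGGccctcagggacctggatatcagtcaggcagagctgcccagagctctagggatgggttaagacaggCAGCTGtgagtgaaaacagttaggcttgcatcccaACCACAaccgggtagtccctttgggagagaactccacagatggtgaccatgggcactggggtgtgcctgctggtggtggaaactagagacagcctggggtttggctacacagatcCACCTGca
Rag1, chr2:101649533-101649782, minus strand: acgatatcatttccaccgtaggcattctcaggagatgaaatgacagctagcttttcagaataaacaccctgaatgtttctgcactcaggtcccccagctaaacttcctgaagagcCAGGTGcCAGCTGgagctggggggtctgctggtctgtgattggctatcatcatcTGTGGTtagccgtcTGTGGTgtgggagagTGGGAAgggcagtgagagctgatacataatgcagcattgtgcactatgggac
Cd79a, chr7:24897247-24897496, plus strand: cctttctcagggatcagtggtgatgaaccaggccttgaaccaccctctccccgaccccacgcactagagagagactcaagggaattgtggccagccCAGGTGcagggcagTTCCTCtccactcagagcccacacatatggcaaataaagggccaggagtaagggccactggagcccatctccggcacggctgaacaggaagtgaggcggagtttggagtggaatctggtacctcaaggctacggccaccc

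Igll1 held an EBF motif, E-boxes and a Runx motif, Rag1 held E-boxes, Runx motifs and an Ikaros motif, and Cd79a held an E-box and a PU.1 motif. The E-box letters were in the promoters of 4 of the 8 members (Rag1, Cd79a, Igll1 and Vpreb1), against 27.4% of 27025 mouse promoters of the same length. Runx letters were in 4 of 8 (Rag1, Vpreb3, Ebf1 and Igll1) against 14.2%, and PU.1 letters in 3 of 8 (Rag2, Cd79a and Vpreb1) against 23.1%. EBF letters were in 1 of 8 against 11.7%, and Ikaros letters in 1 of 8 against 21.5%. These counts take the first window listed for each gene. Ebf1 has a second annotated start, whose window held Ikaros and PU.1 letters and no Runx letters. The Pax5 window held none of these letters. These matches describe the sequence and were not tested.

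Oga, listed under its older symbol Mgea5, had between 104 and 110 reads in the OgaVav-Cre libraries and between 2736 and 3164 in the wildtype libraries, so each library matched its label. Total counts ran from 25190298 to 27064389 in OgaVav-Cre and from 19318056 to 21684561 in wildtype libraries. The LSK genes Kit (the stem cell factor receptor) and Ly6a (Sca-1) were present in every library, at 251 to 601 CPM (counts per 1000000 after TMM normalization in edgeR) and 42.3 to 218 CPM. The antibody share, the percent of counts on Ighm, Igj and Igkc, was 9.88, 4.14 and 1.17% in OgaVav-Cre replicates 1 to 3 and 2.05, 5.48 and 1.36% in the wildtype libraries in the same order. Libraries of a single genotype thus differed in it by more than the genotypes did. Together the 9 members took 0.0342, 0.0243 and 0.107% of all counts in OgaVav-Cre replicates 1 to 3, and 0.108, 0.0283 and 0.0923% in the wildtype libraries in the same order. In these bulk samples, fewer cells of a type and less RNA per cell cannot be told apart. Every member passed the filter on low counts, and the lowest count, 126 reads of Pax5 in wildtype replicate 2, has a 95% exact Poisson interval of 105 to 150 that covers counting error only.

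Members of the receptor complexes were more abundant than the transcription factors and recombinase genes. Per length, on the authors' RPKM scale, Cd79b had the highest median level over the 6 libraries (61.8 RPKM), followed by Cd79a (41.7), Vpreb1 (35.0), Vpreb3 (33.0), Igll1 (28.0), Pax5 (7.88), Rag2 (7.38), Rag1 (5.87) and Ebf1 (4.15). Cd79b was above Cd79a, Vpreb1 above Vpreb3 and Igll1 above Pax5 in 6 of 6 libraries. Vpreb3 and Igll1 changed places between libraries, with Vpreb3 above in 2 of 6, as did Pax5 and Rag2, with Pax5 above in 2 of 6, and Rag2 and Rag1, with Rag2 above in 3 of 6. The ranges of neighbours in this order overlapped in every case. The Ebf1 and Rag1 loci are listed at 18718 and 12698 bases with 19 and 14 exons, which lowers their RPKM relative to shorter loci.

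Ebf1 and Pax5, the transcription factors of B lineage commitment, varied most among the members. Ebf1 is located at chr11:44430819-44821593 (plus strand, mm9, as are all coordinates from here on). Its level was 48.2, 25.1 and 179.6 CPM in OgaVav-Cre replicates 1, 2 and 3 versus 155, 31.7 and 128 CPM in wildtype replicates 1, 2 and 3. OgaVav-Cre replicate 3 and wildtype replicates 1 and 3 were high, the other libraries low, and the genotypes overlapped. Pax5, at chr4:44544017-44723557 (minus strand), was at 8.41, 9.32 and 61.1 CPM in OgaVav-Cre versus 38.2, 6.53 and 49.96 CPM in wildtype replicates 1, 2 and 3. The same libraries were high and low, and the highest was 9.37-fold above the lowest, the widest range of the members. The mean of Pax5 was 26.3 ± 30.2 CPM (SD, n = 3) for OgaVav-Cre cells against 31.6 ± 22.5 CPM (SD, n = 3) for wildtype, and that of Ebf1 was 84.3 ± 83.3 CPM (SD, n = 3) and 105 ± 64.7 CPM (SD, n = 3) for Ebf1. The log2 fold change of OgaVav-Cre over wildtype was -0.26 (standard error 0.904, adjusted p = 0.932) for Pax5 and -0.31 (standard error 0.769, adjusted p = 0.902) for Ebf1, in the quasi-likelihood test of edgeR, adjusted over 22032 loci after Benjamini and Hochberg. Smaller loci lie inside both genes, among them 5730488B01Rik in Pax5 and a second Ebf1 locus of 943 bases on the opposite strand, which had 57, 35 and 178 reads in OgaVav-Cre versus 152, 16 and 143 reads in wildtype libraries. How reads in overlaps were assigned, and whether strand was used, is not given in the sources used here.

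Cd79a and Cd79b, the signalling chains of the pre-B and B cell receptors, moved together closely. Cd79a, at chr7:25682400-25687216 (plus strand), was at 61.8, 44.6 and 164 CPM in OgaVav-Cre versus 80.3, 35.8 and 111 CPM in wildtype replicates 1, 2 and 3. Cd79b, at chr11:106172655-106176076 (minus strand), was at 85.4, 63.3 and 216 CPM in OgaVav-Cre versus 121, 56.3 and 148 CPM in wildtype replicates 1, 2 and 3. For both genes OgaVav-Cre replicate 3 was the highest library and wildtype replicate 2 the lowest, and the genotypes overlapped. The ratio of Cd79a to Cd79b stayed between 0.636 and 0.760 in the 6 libraries. They were the only members with a log2 fold change above 0 between genotypes, at 0.25 (standard error 0.542, adjusted p = 0.886) for Cd79a and 0.17 (standard error 0.499, adjusted p = 0.922) for Cd79b in edgeR. No other locus of the table overlaps Cd79a or Cd79b.

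Vpreb1 and Igll1 encode the surrogate light chain, and Vpreb3 encodes a related protein that acts while receptor chains are assembled. Igll1, at chr16:16860764-16864078 (minus strand), was at 41.7, 27.8 and 144 CPM in OgaVav-Cre versus 181, 39.9 and 94.8 CPM in wildtype replicates 1, 2 and 3. Vpreb1, at chr16:16868494-16870936 (minus strand), was at 28.7, 19.95 and 89.5 CPM in OgaVav-Cre versus 106, 22.9 and 60.1 CPM in wildtype replicates 1, 2 and 3. Vpreb3, at chr10:75405802-75412402 (plus strand), was at 15.7, 9.92 and 54.8 CPM in OgaVav-Cre versus 64.5, 16.6 and 46.2 CPM in wildtype replicates 1, 2 and 3. All of these genes were highest in wildtype replicate 1 and lowest in OgaVav-Cre replicate 2, unlike the CD79 chains, and the genotypes overlapped. The ratio of Vpreb1 to Igll1 stayed between 0.575 and 0.718. The log2 fold changes between genotypes were -0.56 (standard error 0.694, adjusted p = 0.783) for Igll1, -0.45 (standard error 0.660, adjusted p = 0.822) for Vpreb1 and -0.66 (standard error 0.680, adjusted p = 0.737) for Vpreb3 in edgeR.
Vpreb2 is a near-identical copy of Vpreb1. Their annotated transcripts, both 766 bases long in GENCODE vM1 on mm9, match at 97.4% of positions, and 32.5% of the 50-base windows of Vpreb1 also occur in Vpreb2. Vpreb2 had 80, 62 and 265 reads in OgaVav-Cre versus 226, 37 and 181 reads in wildtype libraries, where Vpreb1 had 648, 505 and 2458 and 2262, 442 and 1424 reads. The high and low libraries were the ones of Vpreb1, and the split of reads between the copies is uncertain. The Vpreb1 locus also overlaps the start of Top3b by 108 bases and nearly the whole of 1700048G13Rik, which had between 1431 and 1920 and between 5 and 16 reads per library. Gm16221, inside Vpreb3 on the opposite strand, had between 0 and 13 reads.

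Rag1 had the largest difference between genotypes among the members, and it did not pass the test. At chr2:101400938-101489699 (minus strand), it was at 64.7, 36.0 and 109.9 CPM in OgaVav-Cre versus 236, 58.2 and 174 CPM in wildtype replicates 1, 2 and 3. Wildtype replicates 1 and 3 were above each OgaVav-Cre library, but wildtype replicate 2 fell between OgaVav-Cre replicates 2 and 1. The means were 70.2 ± 37.3 CPM (SD, n = 3) and 156 ± 90.3 CPM (SD, n = 3), with a log2 fold change of -1.15 (standard error 0.541, unadjusted p = 0.0669, adjusted p = 0.492) in edgeR. Rag2, at chr2:101464875-101472685 (plus strand), was at 27.2, 14.5 and 32.5 CPM in OgaVav-Cre versus 61.8, 15.3 and 33.2 CPM in wildtype replicates 1, 2 and 3. OgaVav-Cre replicates 1 and 3 and wildtype replicate 3 were close together, and wildtype replicate 1 stood above them. The log2 fold change of Rag2 was -0.57 (standard error 0.488, adjusted p = 0.679). Rag2 lies within the span of the Rag1 locus, as does B230118H07Rik, which had between 150 and 214 reads per library, so part of the reads of either recombinase gene may be shared.

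**Figure D1:**
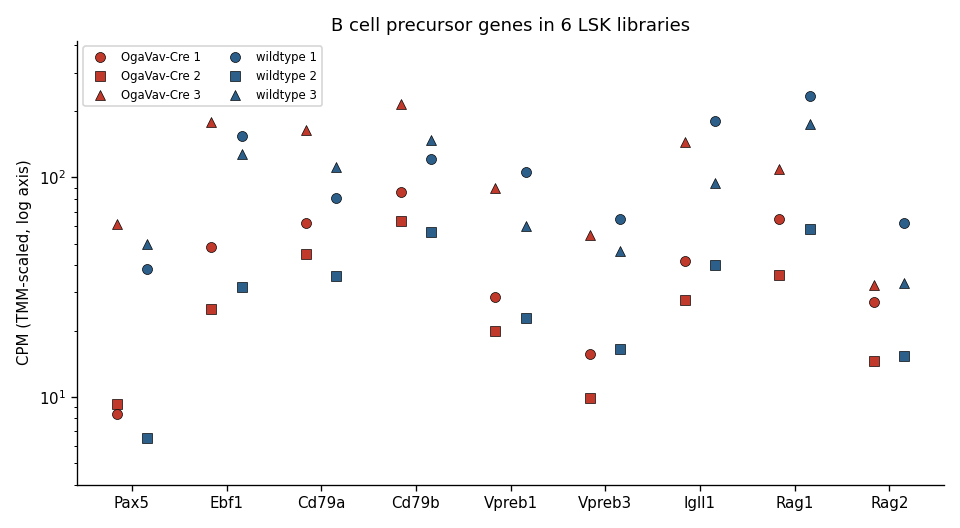
Level of each B cell precursor gene in CPM on a log axis, with 1 point per library, red for OgaVav-Cre and blue for wildtype, and circles, squares and triangles for replicates 1, 2 and 3. Each of the 9 genes was lower in OgaVav-Cre replicates 1 and 2 and wildtype replicate 2 than in the other 3 libraries, so that both genotypes hold high and low libraries. How many of all loci split in this way was not computed.

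No member passed the test between OgaVav-Cre and wildtype cells. Calls needed a log2 fold change beyond 1 in either direction at an adjusted p under 0.05, which 0 of the 9 members and 0.0318% of all loci tested reached. At an unadjusted p below 0.05 there were 0 members and 2346 of 22032 loci, and 0 members were called or reached that p with DESeq2's Wald test or limma-voom. Loci that reached it numbered 2449 of 36466 with DESeq2's Wald test and 2397 of 22032 with limma-voom. Rag1 reached it with no filter on low counts (unadjusted p = 0.0214, adjusted p = 0.560, edgeR) and without wildtype replicate 2 (unadjusted p = 0.00819, adjusted p = 0.656, edgeR), where Rag2 did too (unadjusted p = 0.0452, adjusted p = 0.656, edgeR). In these 2 fits 2883 of 36514 and 1740 of 23183 loci reached it. Rag1 also did so without OgaVav-Cre replicate 3 (unadjusted p = 0.0188, adjusted p = 0.280, edgeR) and with the replicate number as a block (unadjusted p = 0.00590, adjusted p = 0.334, edgeR). There 3225 of 22584 and 2724 of 22032 loci reached it. The libraries of both genotypes overlapped for 9 of 9 members, whereas they did not overlap for 17.5% of loci tested. The median log2 fold change of the members was -0.45, beside 0.0041 for all loci, and 7 of 9 were below 0. The two-sided exact permutation test of 1 gene in 3 against 3 mice can reach 0.1 at the least, and it gave 0.3 for Rag1.
The spread between libraries was wide for these genes, with the highest library over 3 times the lowest for 9 of 9 members against 23.9% of loci tested. The highest library of OgaVav-Cre was a median of 4.49-fold above the lowest over the members, and that of wildtype 4.06-fold, whereas the medians over 16907 loci with at least 1 CPM in every library were 1.31-fold and 1.33-fold. Single libraries set the direction for most members. Without OgaVav-Cre replicate 3 the log2 fold change was -0.51 for Cd79a and -0.54 for Cd79b, and without wildtype replicate 2 it was -0.079 and -0.14. Without OgaVav-Cre replicate 3 it was also -1.83 for Pax5, -1.51 for Ebf1, -1.60 for Igll1, -1.73 for Vpreb3, -1.37 for Vpreb1 and -1.63 for Rag1, and 6 members had an unadjusted p below 0.05, as did 14.3% of the loci tested in that fit, but none passed the adjusted test. Without wildtype replicate 1 the log2 fold changes of Ebf1, Vpreb1, Igll1 and Rag2 were 0.081, 0.15, 0.084 and 0.030. Without OgaVav-Cre replicate 2 those of Pax5 and Ebf1 were 0.15 and 0.13, and that of Pax5 was 0.17 without OgaVav-Cre replicate 1 and 0.23 without wildtype replicate 3. Rag1 and Vpreb3 stayed below 0 whichever of the 6 libraries was left out, with a log2 fold change of Rag1 from -1.63 to -0.73.

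**Figure D2:**
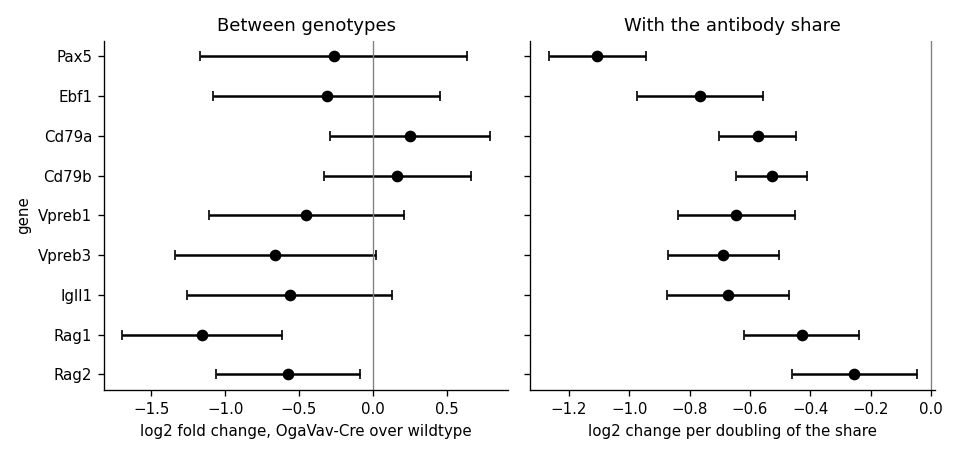
Estimates with their standard errors (bars) from edgeR for each member, on the left the log2 fold change of OgaVav-Cre over wildtype and on the right the log2 change for each doubling of the antibody share. Rag1 lies lowest between genotypes at -1.15, and the slopes run from -1.11 for Pax5 to -0.26 for Rag2.

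The slope of each member on the antibody share was negative, and that of Pax5 passed the test. The fit held genotype and the log2 of the share, so that its slope is the log2 change for each doubling of the share at equal genotype. Pax5 fell by 1.11 on the log2 scale for each doubling (standard error 0.161, adjusted p = 0.0288, edgeR), a 2.15-fold lower level. Slopes were -0.77 for Ebf1 (adjusted p = 0.222), -0.69 for Vpreb3 (0.207), -0.67 for Igll1 (0.263), -0.65 for Vpreb1 (0.264), -0.57 for Cd79a (0.123), -0.53 for Cd79b (0.125), -0.43 for Rag1 (0.468) and -0.26 for Rag2 (0.727). Thus 1 of 9 members was called with a negative slope at an adjusted p below 0.05, against 0.354% of loci tested, and 7 of 9 had an unadjusted p below 0.05, against 6.31%. Rag1 and Rag2 were the members above that p. The median slope was -0.65 over the members and 0.0047 over all loci. Members transcribed in the same cells are not independent of one another, and antibody transcripts themselves come from B lineage cells.
The order of the libraries was not a steady descent. The 3 libraries with a share between 1.17 and 2.05% were above the 3 with a share between 4.14 and 9.88% for 9 of 9 members. How many of all loci split in this way was not computed. Some genes outside the B lineage, such as Cd3d, Cd8a and Il2rb, did so too, and others did not. OgaVav-Cre replicate 1, with the largest share, was the lowest library for none of the members. OgaVav-Cre replicate 2 was the lowest for 6 members and wildtype replicate 2 for 3. Without OgaVav-Cre replicate 1 the slopes were steeper, at -1.51 for Pax5, -1.34 for Ebf1, -0.91 for Cd79a, -0.83 for Cd79b and -0.92 for Rag1, and 4 members were called, beside 0.322% of loci called with a negative slope in that fit. The call of Pax5 was lost without OgaVav-Cre replicate 3 (slope -1.12, adjusted p = 0.899), wildtype replicate 2 (-0.97, adjusted p = 0.0742) or wildtype replicate 3 (-1.09, adjusted p = 0.0808). It was also lost with a robust dispersion estimate (adjusted p = 0.0940). Without OgaVav-Cre replicate 3, 1 of 9 members had an unadjusted p below 0.05 in edgeR, beside 731 of 22584 loci with slopes of either sign. In that fit 0 loci were called with a negative slope. Slopes in that fit were shallower for Ebf1 (-0.57), Vpreb3 (-0.46), Igll1 (-0.43), Vpreb1, Cd79a and Cd79b, and slightly steeper for Pax5, Rag1 and Rag2. With no filter on low counts 7 members were called, beside 1.45% of all loci then called with a negative slope. The deepest library of each genotype, replicate 3, had the smallest share and was among the high libraries, and the part of depth in the result was not tested. With the share in the model, no member was called between genotypes, and the log2 fold change of Rag1 was -0.85.

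**Figure D3:**
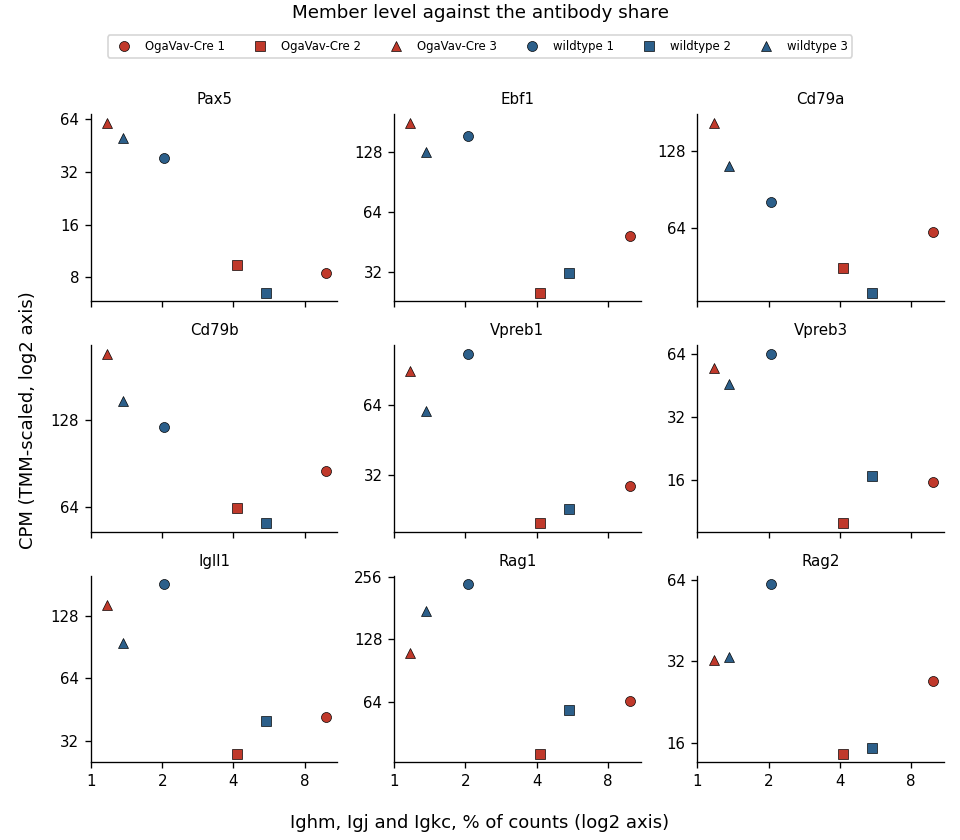
Level of each member (CPM, log2 axis) against the percent of counts on Ighm, Igj and Igkc (log2 axis), with 1 point per library, red for OgaVav-Cre and blue for wildtype. The 3 libraries with a share of 1.17 to 2.05% lie above the 3 libraries with 4.14 to 9.88% in all 9 panels, and the library at 9.88% is the lowest in none. How many of all loci split in this way was not computed.

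Ratios within a library remove what moves both genes of a pair to the same degree, and keep what moves them to different degrees. Of the 36 pairs of members, 5 had ratios that did not overlap between genotypes, and these all involved a CD79 chain with Rag1 or Vpreb3, or Rag1 with Rag2. Levels of single loci did not overlap for 17.5% of loci tested. No share over pairs of other loci was computed, and pairs that share a gene are not independent. The ratio of Cd79a to Rag1 was 0.956, 1.24 and 1.49 in OgaVav-Cre versus 0.341, 0.616 and 0.638 in wildtype replicates 1, 2 and 3, without overlap. On average it was 2.37-fold higher in OgaVav-Cre, and that of Cd79b to Rag1 was 2.21-fold higher. Cd79a to Vpreb3 was 3.93, 4.47 and 2.99 in OgaVav-Cre versus 1.25, 2.15 and 2.40 in wildtype libraries, 2.01-fold higher. Rag1 to Rag2 was 2.38, 2.46 and 3.37 in OgaVav-Cre versus 3.81, 3.78 and 5.25 in wildtype libraries, and this ratio was 1.56-fold lower. Each of these 5 ratios had a two-sided exact permutation p of 0.1, the smallest that 3 against 3 can give, and 0.514 after adjustment over the 36 pairs. The ratio of Cd79a to other loci did not overlap between genotypes for 2 of the 8 other members and for 2.5% of loci tested. Loci that do not vary with Cd79a keep its spread between libraries in the ratio, so this share is only a rough base for the members. No such share was computed for ratios to Cd79b, Rag1 or Rag2. Among pairs that kept their ratio over the libraries were Cd79a with Cd79b and Vpreb1 with Igll1, whose highest ratios were 1.20-fold and 1.25-fold above the lowest, whereas Pax5 with Rag2 varied 6.03-fold.

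**Figure D4:**
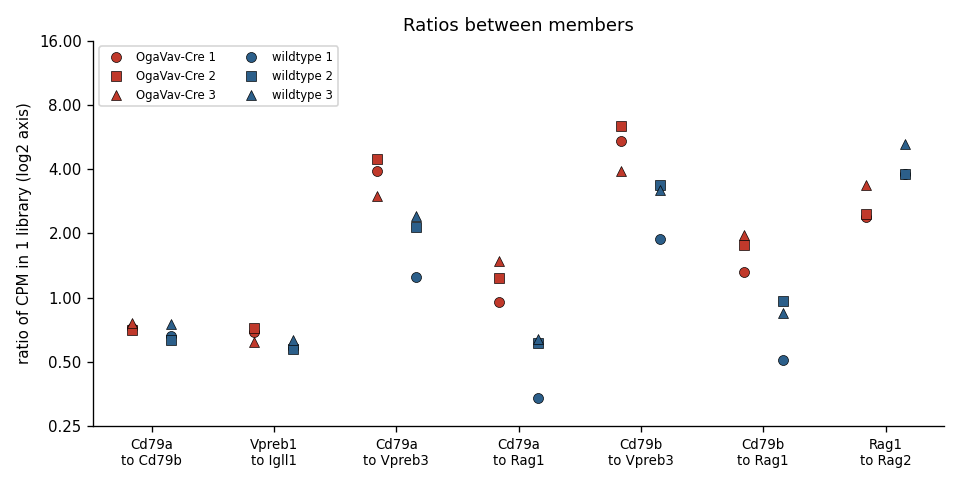
Ratio of CPM between pairs of members within each library (log2 axis), with 1 point per library, red for OgaVav-Cre and blue for wildtype. Cd79a to Cd79b stays between 0.636 and 0.760, and the 5 pairs on the right are those in which the genotypes do not overlap.

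Other genes of the B lineage program were read from 4 lists with 39 genes, of which 38 were tested. None of them was called between genotypes, and 1 had an unadjusted p below 0.05: Il2rg, the common chain of several interleukin receptors, with a log2 fold change of 0.33 (adjusted p = 0.468, edgeR). With the antibody share, 3 of 38 had a negative slope past the test, 0 had a positive one, and 30 of 38 slopes were below 0, as were 10685 of 22032 over all loci. The called genes were Cd22, an inhibitory receptor of B cells (slope -1.35, adjusted p = 0.0214), Spib, a transcription factor related to PU.1 (-1.09, adjusted p = 0.0218), and Bach2, a repressor that holds off plasma cell fate (-0.53, adjusted p = 0.0408).
Of the 11 genes of pre-B receptor surface and signalling, 11 slopes were below 0, with a median of -0.45 and 1 call. Cd22 was at 11.7, 14.6 and 125.6 CPM in OgaVav-Cre versus 31.9, 6.01 and 91.1 CPM in wildtype replicates 1, 2 and 3, high and low in the libraries in which the members were. Of 11 other B lineage regulators, 8 slopes were below 0. Lef1, a transcription factor of early B and T cells, had the smallest genotype p of this list and was at 15.3, 12.2 and 72.2 CPM in OgaVav-Cre versus 95.2, 18.0 and 65.6 CPM in wildtype replicates 1, 2 and 3. Irf4, which acts in plasma cells as well, had a positive slope of 0.35 (adjusted p = 0.251).
The early lymphoid genes did not share one pattern. Of 7 genes, 4 slopes were below 0, 0 were called and the median was -0.0075. Il7r, the interleukin-7 receptor that precursor B cells need, was at 53.9, 29.3 and 143 CPM in OgaVav-Cre versus 139.97, 50.1 and 81.8 CPM in wildtype replicates 1, 2 and 3, whereas Flt3, a cytokine receptor of multipotent and lymphoid progenitors, was at 372, 356 and 202 CPM and 245, 384 and 251 CPM. Flt3 was low where the members were high. Both genes, and Dntt, which adds bases at joints of antibody genes and had a slope of 0.0092 (adjusted p = 0.992), were chosen after their values were seen. Of 9 V(D)J joining partners, which repair the cuts that RAG makes in many cell types, 7 slopes were below 0 with a median of -0.11 and 0 calls. The genes of this list with the smallest genotype p, Xrcc5, Dclre1c and Prkdc, had log2 fold changes of 0.39, -0.43 and -0.34 (adjusted p = 0.548, 0.580 and 0.585 in edgeR).

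Some markers of other blood cells moved with the members and others against them or with neither, and their part in the results was not tested. Of 8 mature B cell markers 7 were in the table, all 7 slopes with the antibody share were below 0 and 3 were called: Ms4a1 (CD20, slope -1.03, adjusted p = 0.0118), Cr2 (a complement receptor, -1.45, adjusted p = 0.00766) and Fcer2a (CD23, -1.59, adjusted p = 0.0408). Their summed level ran from 240.2 to 817 CPM in OgaVav-Cre versus from 230.3 to 600.4 CPM in wildtype libraries. Ms4a1 was at 32.1, 44.6 and 228 CPM in OgaVav-Cre versus 62.4, 24.0 and 148 CPM in wildtype replicates 1, 2 and 3. Wildtype replicate 1 was thus well below OgaVav-Cre replicate 3 for Ms4a1, whereas it was the highest library for the surrogate light chain and recombinase genes. The ratio of Igll1 to Ms4a1 was 1.30, 0.624 and 0.634 in OgaVav-Cre versus 2.90, 1.66 and 0.642 in wildtype replicates 1, 2 and 3.
Of 9 plasma cell genes, 9 slopes were above 0 and 7 were called, among them Tnfrsf17 (BCMA, a survival receptor of plasma cells, 1.21, adjusted p = 0.00209), Txndc5 (a protein folding enzyme, 0.78, adjusted p = 0.00375) and Sdc1 (syndecan-1, 0.67, adjusted p = 0.00766). Over all loci, 77 of 22032 were called with a positive slope. Plasma cells make antibody transcripts themselves, so these genes and the share are not independent. The summed level of the 9 plasma cell genes ran from 582 to 2525 CPM in OgaVav-Cre versus from 465 to 1191 CPM in wildtype libraries, opposite in direction to the members.
OgaVav-Cre replicate 3 also stood apart in markers that are not of the B lineage. The 9 T cell genes summed to 295 CPM there and to 128 to 211 CPM elsewhere, and the 5 plasmacytoid dendritic cell genes to 1043 CPM against 261 to 416 CPM. Among the T cell genes, Cd4 was at 72.6 CPM in that library and at 10.7 to 20.8 CPM elsewhere. Cd247 and Il2rb were not highest in that library, and the other T cell genes were. Siglech, a receptor of plasmacytoid dendritic cells, was at 34.8, 31.2 and 448 CPM in OgaVav-Cre versus 120.2, 41.7 and 36.9 CPM in wildtype replicates 1, 2 and 3. The 10 myeloid and erythroid genes summed to 3682 CPM there and to 643 to 1597 CPM elsewhere, and Ly6g had no reads in wildtype replicate 1. With the antibody share, the slopes of 9 of 9 T cell genes were below 0 (median -0.63, 7 at an unadjusted p below 0.05), as were those of 5 of 5 plasmacytoid dendritic cell genes (median -0.51, 4 at that p) and 9 of 10 myeloid and erythroid genes (median -0.31, 2 at that p). The median slope of the T cell genes was thus close to the -0.65 of the members, and none of these genes passed the adjusted test. Of the 9 LSK genes, 7 slopes were above 0 (median 0.27, 5 at an unadjusted p below 0.05, 0 called). The T cell receptor genes Cd3d, Cd3e and Cd3g were low, between 0.0395 and 8.16 CPM. The summed level of the 9 LSK genes was lowest in OgaVav-Cre replicate 3, at 1009 CPM, followed by wildtype replicate 1 at 1312 CPM, and highest in wildtype replicate 2 at 2284 CPM. None of the genes on these 6 lists of other blood cells and LSK genes was called between genotypes.

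**Figure D5:**
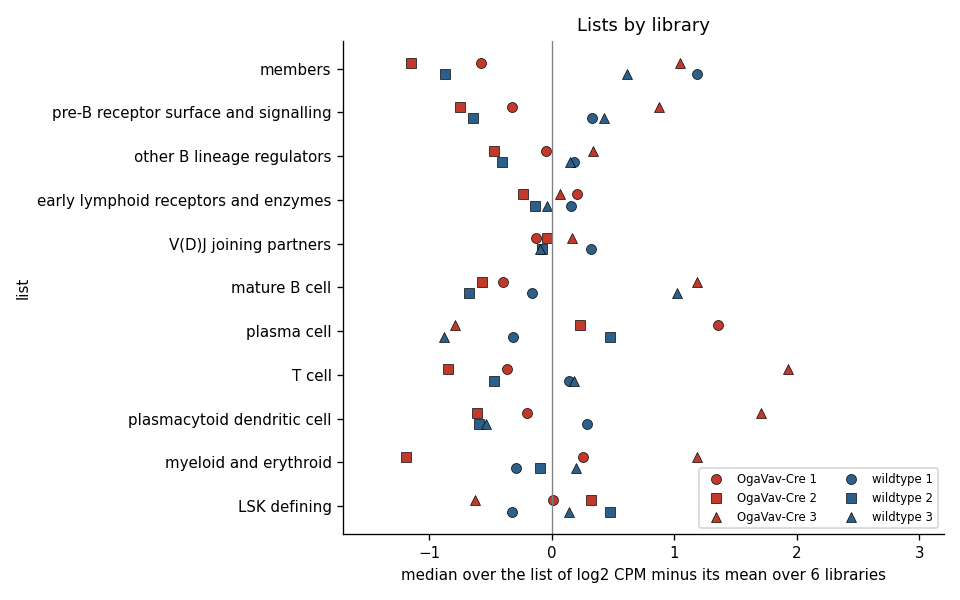
Median over each list of log2 CPM minus the mean of the gene over the 6 libraries, with 1 point per library, red for OgaVav-Cre and blue for wildtype. The members range from -1.15 to 1.18, mature B cell genes are highest in OgaVav-Cre replicate 3 and wildtype replicate 3 (1.18 and 1.03), and plasma cell genes are highest in OgaVav-Cre replicate 1 (1.36).

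The members resembled one another over the libraries, with a median Pearson's r of log2 CPM of 0.910 over the 36 pairs (range 0.663 for Cd79a with Rag2 to 0.996), given as a description over 6 libraries. Of 18976 loci outside the members with a mean of at least 1 CPM, the locus most like their mean log2 CPM was Gbp4/Gbp8 (r = 0.999), followed by Gbp4, which holds nearly the same reads, Pcsk7, Pcsk7/Rnf214 and Pde2a (r = 0.997). Gbp4/Gbp8, which encodes interferon-induced guanylate-binding proteins, was at 20.1, 14.7 and 45.6 CPM in OgaVav-Cre versus 43.1, 16.2 and 37.0 CPM in wildtype replicates 1, 2 and 3. Pde2a, a phosphodiesterase of cyclic nucleotides, was at 71.1, 46.3 and 189 CPM in OgaVav-Cre versus 203, 55.8 and 144 CPM in wildtype replicates 1, 2 and 3.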

How the data were processed

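The authors aligned single-end 50 bp poly(A) reads (base calling with CASAVA 1.8.2 in the submitters' processing notes) to mm9, and Genomatix gave their number at each locus. The versions of the aligner and the annotation are not given in the sources used here. The deposited table holds raw read counts per locus, which were used for the tests, and RPKM made by the authors, which were used for levels per length. Columns of Genomatix normalized expression and of the authors' own fold changes and p-values were not used. Ensembl-named loci were matched to symbols for 6406 of 6419.

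Counts were scaled by TMM and tested in edgeR 4.0.16 (R 4.3.3) with filterByExpr, glmQLFit and glmQLFTest, with genotype alone or with genotype and the log2 antibody share. Benjamini-Hochberg adjustment was made over 22032 loci. The fits were checked on simulated data. The members and lists were chosen with earlier results of these data known. Named genes were the members, the antibody genes, Oga, overlapping loci and Vpreb2, called genes and up to 3 genes per list with the smallest genotype p, and the 5 loci most like the members. Kit, Il7r, Flt3, Dntt, Ly6g and the CD3 genes were chosen after their values were seen. Alternatives were other scalings, filters and dispersion estimates, DESeq2 1.42.0, limma-voom (limma 3.58.1), RPKM with a pseudocount of 0.1 or 1, the antibody share or the replicate number in the model, the Igj share alone, and each library left out. The p-values between genotypes measure the spread between 3 mice per genotype, and those of the slopes the scatter of the 6 libraries around the fitted line.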

Additional observations from a re-analysis of the deposited data

How the results depend on the processing

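With 3 mice per genotype and a spread of several fold between libraries, differences of the size seen for these genes could not be told from that spread. No member was called between genotypes under any of the 18 alternatives. Of the 22032 loci, 7 were called, and the count was 21 with no filter on low counts, 4 with at least 10 reads in every library, 115 with DESeq2's Wald test, 4 with RPKM and a pseudocount of 1, 17 with the antibody share as a covariate, and from 3 to 9 with each library left out. Libraries with the same number did not deviate together in every pair (r = -0.081, 0.26 and 0.32), so they were not treated as pairs. With the replicate number as a block 6 loci and 0 members were called, and Rag1 had a log2 fold change of -1.07 (unadjusted p = 0.00590, adjusted p = 0.334, edgeR).

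With the antibody share as a covariate the log2 fold changes of Pax5 and Ebf1 turned to 0.14 and 0.016. Leaving out 1 library at a time gave log2 fold changes from -1.83 to 0.23 for Pax5, from -1.51 to 0.13 for Ebf1, from -0.51 to 0.63 for Cd79a, from -0.54 to 0.48 for Cd79b, from -1.37 to 0.15 for Vpreb1, from -1.60 to 0.084 for Igll1 and from -0.93 to 0.030 for Rag2. These changes of sign arose in comparisons that did not pass the test, and the cause was not tested.

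The antibody share called 155 loci, and the count was 235 without TMM, 788 with no filter, 88 without the genotype term and from 20 to 216 with each library left out. Ighm, Igj and Igkc, whose counts make up the share, are among the 155. Members called, 1 in the fit reported, numbered 7 with no filter, 0 with a robust dispersion estimate, 2 with the share of Igj alone, and from 0 to 4 with each library left out. Of 22032 loci, 78 were called with a negative slope in the fit reported, 89 with the robust estimate and 140 with Igj alone. With no filter it was 529 of 36514, and with each library left out from 0 to 123 loci. The slope of each member stayed below 0 in all of the 14 alternatives.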
